A study of Mus musculus with 136 samples.

Results

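The 10 genes examined here encode transcription factors of the neural crest: Msx1, Msx2, Tfap2b, Foxd3, Snai1, Snai2, Twist1, Ets1, Sox9 and Sox10. They were taken by symbol from a table of 47643 genes, by a rule that reads no measured value. The list itself was chosen with earlier results of these data known. Each symbol was found once, and all 10 genes passed the filter on low counts in each of the 8 comparisons made. Their RNA was measured in whole embryos at embryonic day 8.5, and the visceral yolk sacs of the same concepti served as background.

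The neural crest arises at the border between neural plate and surface ectoderm, where BMP, WNT and FGF signals meet. Border factors of the Msx, Pax3/Pax7, Zic and Tfap2 families come on early there, the specifiers Foxd3, Snai1, Snai2, Sox9 and Ets1 follow, and Sox10 marks crest cells as they leave the neural folds by an epithelial-to-mesenchymal transition. Crest cells give rise to peripheral neurons and glia, pigment cells and much of the facial skeleton, and in the mouse the cranial crest begins to migrate at early somite stages. Several of these factors also act outside the crest: Twist1 in head mesoderm, Snai1 in mesoderm leaving the primitive streak, Ets1 in endothelium, Sox9 in the neural tube and Msx1 and Msx2 in extra-embryonic mesoderm. A count from a whole embryo sums all these sources, so fewer cells of a type and less RNA per cell cannot be told apart.

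All mice were of the NOD strain, whose females become diabetic spontaneously through autoimmune loss of insulin-producing cells. Diabetic dams had been hyperglycemic before mating to normoglycemic NOD males, so diabetes, its onset before conception and the accompanying autoimmunity come together in these embryos. Blood glucose of the dams was 105 to 164 mg/dl in the 10 normal litters and 423 to 595 mg/dl in the 11 diabetic litters with a number in the labels. One further diabetic litter had no number within the meter's scale. At 5–6 somite pairs 10 normal dams gave 17 embryos and 9 diabetic dams gave 17. At 7–9 somite pairs 7 normal dams gave 16 embryos and 6 diabetic dams gave 16, and 7 of these 16 came from litter D24M15. Littermates share a dam, and no dam contributed to both conditions. The stages did share dams: all 7 normal dams of the later stage also gave earlier embryos. Among the diabetic dams D24M15, D28M23 and D28M36 gave embryos to both stages.

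The libraries held 1330731 to 5658850 counts per embryo and 1017901 to 3888137 per yolk sac. Markers went with the labelled tissues: 4 of 4 neural tube markers were higher in the embryo and 10 of 10 visceral endoderm markers were lower there at both stages. For 2 concepti, D28M27C and N28M07E, the sex labels of embryo and yolk sac differed, and the sex-linked transcripts of each library went with its own label. Results between tissues are therefore given with and without them. The share of counts in genes with no symbol in the table was higher in diabetic embryos at 5–6 somite pairs (mean 12.1% ± 3.21, SD, n = 17) than in the other 3 groups of embryos, whose means were 8.41% ± 3.61 (normal, 5–6), 8.81% ± 3.39 (normal, 7–9) and 8.64% ± 1.60 (diabetic, 7–9). Results that it changed as a covariate in the fit are named where they stand.

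The genes lie on 10 chromosomes (GENCODE M21, GRCm38). Msx1 spans chr5:37820485-37824583 and Msx2 chr13:53466884-53473074, both on the minus strand. Tfap2b spans chr1:19208914-19238576, Foxd3 chr4:99656299-99658622, Snai1 chr2:167538195-167542814, Snai2 chr16:14705852-14709385, Twist1 chr12:33957671-33959829, Ets1 chr9:32636221-32757820 and Sox9 chr11:112782224-112787760, all on the plus strand. Sox10 spans chr15:79154908-79165240 on the minus strand. A microRNA gene, Gm23366, lies within Foxd3 on the same strand and had a mean of 0 counts per embryo, and an antisense gene, Gm27240, overlaps Ets1 and had a mean of 0.0152 counts.

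The promoters of Snai1, Twist1, Msx1 and Msx2 are shown because the levels of these 4 genes ran together across embryos, as described further on. The sequences are from RefSeq (GRCm38.p6), 250 bases before to 50 bases after the gene's RefSeq start, 5′ to 3′ on the gene's strand. This start can differ from the GENCODE span given above, as for Msx2, whose window lies within that span. Capitals mark matches to CANNTG, the E-box that basic helix-loop-helix factors such as Twist1 bind, searched on both strands.
Snai1 (chr2:167537945-167538244, plus strand): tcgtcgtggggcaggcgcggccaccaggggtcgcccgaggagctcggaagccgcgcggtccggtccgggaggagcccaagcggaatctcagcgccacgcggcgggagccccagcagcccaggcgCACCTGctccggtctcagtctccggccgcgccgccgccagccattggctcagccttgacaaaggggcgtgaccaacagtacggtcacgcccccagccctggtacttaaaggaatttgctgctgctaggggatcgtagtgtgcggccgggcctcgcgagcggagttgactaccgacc
Twist1 (chr12:33957421-33957720, plus strand): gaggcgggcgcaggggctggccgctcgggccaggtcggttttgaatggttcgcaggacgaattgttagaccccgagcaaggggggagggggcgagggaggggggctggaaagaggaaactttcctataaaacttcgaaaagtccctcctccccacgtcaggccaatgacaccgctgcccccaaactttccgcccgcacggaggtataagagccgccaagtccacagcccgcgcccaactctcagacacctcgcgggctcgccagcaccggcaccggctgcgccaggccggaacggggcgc
Msx1 (chr5:37824536-37824835, minus strand): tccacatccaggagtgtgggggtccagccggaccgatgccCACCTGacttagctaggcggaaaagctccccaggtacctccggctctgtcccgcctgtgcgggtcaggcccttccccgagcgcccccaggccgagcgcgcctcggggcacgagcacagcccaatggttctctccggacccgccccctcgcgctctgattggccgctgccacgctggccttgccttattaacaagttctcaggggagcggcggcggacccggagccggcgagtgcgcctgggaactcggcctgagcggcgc
Msx2 (chr13:53472731-53473030, minus strand): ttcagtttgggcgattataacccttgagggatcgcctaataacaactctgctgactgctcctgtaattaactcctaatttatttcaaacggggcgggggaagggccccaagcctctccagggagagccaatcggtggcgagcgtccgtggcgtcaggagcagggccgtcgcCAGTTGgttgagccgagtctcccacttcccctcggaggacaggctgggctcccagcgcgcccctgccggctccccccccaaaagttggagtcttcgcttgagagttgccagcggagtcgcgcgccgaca
Entries were found for 6 of the 10 genes, the other 2 being Foxd3 and Tfap2b. Of the 6 promoters, 5 held CANNTG, as did 72.3% of all 32851 promoters in the table, and the Twist1 promoter held none. The form CAGGTG, which Snail factors bind and which is 1 case of CANNTG, was present in 2 of the 6, Snai1 at -126 and Msx1 at -210 from the start (reading CACCTG on the gene's strand), against 20.2% of all promoters. The Msx2 match, CAGTTG at -79, is another form. These matches describe letters in the window and no binding was measured.

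Levels are UMI counts divided by a size factor of each library and are called normalized counts. The method counts a tag near the 3′ end of each molecule, so levels were compared between genes without division by length. Sox9, a regulator of crest survival and of cartilage, had the highest mean over the 66 embryos, 417 ± 88.1 (SD). Msx1, a homeobox factor of the neural plate border, came next with 213 ± 76.5. Sox9 was above Msx1 in 62 of 66 embryos and Msx1 above Foxd3 in 64, so these places in the order were held by nearly all embryos.

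The middle of the order was not resolved. Foxd3, a forkhead factor that keeps crest progenitors undifferentiated, had a mean of 84.9 ± 37, and Tfap2b, an AP-2 factor of crest and sympathetic precursors, of 58.1 ± 29.1. Snai1 (52.5 ± 17.7), Ets1 (48.3 ± 13.7) and Twist1 (43.8 ± 20.1) followed. Neighbours from Tfap2b to Twist1 stood in the stated order in only 32 to 41 of 66 embryos, and so did not differ beyond their spread. Sox10 (35.6 ± 21.1) and Snai2 (35.1 ± 9.58) did not differ beyond their spread either, with Sox10 higher in 32 of 66. Msx2 was lowest at 19.6 ± 17 and was the most variable member, with a coefficient of variation of 86.8% against 21.1% for Sox9.

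**Figure D1:**
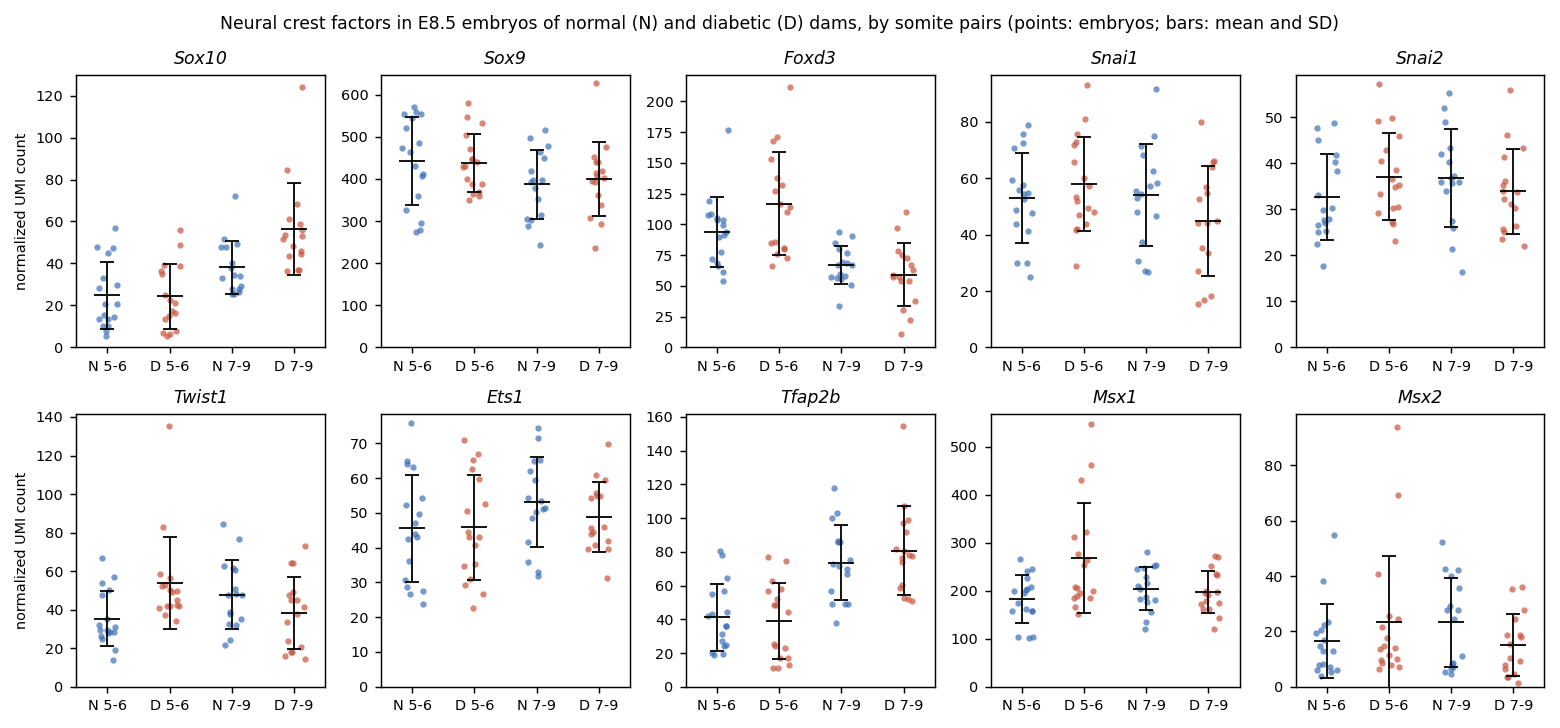
Normalized UMI counts of the 10 genes (y axis, from 0) in single embryos, in 4 groups by maternal condition (N normal, D diabetic) and somite pairs. Points are embryos, and black bars give the mean and SD. Sox10 and Tfap2b sit higher at 7–9 than at 5–6 somite pairs and Foxd3 lower, while Msx1 and Twist1 have high single values in the diabetic 5–6 group.

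The comparison with the yolk sac asks how far each gene belongs to the embryo proper. At 5–6 somite pairs 7 of the 10 genes were higher in the embryo and 2 lower by edgeR's quasi-likelihood test at an adjusted p under 0.05, beside 79.3% of all 11471 genes called (40.7% higher and 38.5% lower). At 7–9 somite pairs 7 were higher and 1 lower, beside 81.1% of 11382 (42% higher and 39.1% lower). With the conceptus as a replicate block the counts of genes called were again 9 and 8, and they were also 9 and 8 without the 2 concepti with differing sex labels.

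Sox10, Foxd3 and Tfap2b were close to absent from the yolk sac. Sox10 had 1117 counts in the 34 embryos and 2 in the 34 yolk sacs at 5–6 somite pairs, a ratio of 452 after scaling for depth (exact 95% counting interval 125 to 3741). At 7–9 somite pairs the counts were 1561 and 8 (ratio 187, 94.6 to 434). In the yolk sacs no library held more than 1 Sox10 count at either stage. Foxd3 had 4394 counts in embryos and 15 in yolk sacs at the earlier stage (ratio 237, 144 to 424) and 2081 and 5 at the later (398, 170 to 1229). None of the 16 yolk sacs of normal concepti at 7–9 somite pairs held a Foxd3 count. Tfap2b had 1753 and 13 counts (ratio 109, 63.7 to 206), then 2526 and 7 (346, 167 to 860). These intervals cover counting error only, and the groups of embryos and yolk sacs did not overlap for any of the 3 genes.

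Sox9 was present in every yolk sac at a low level, with 8.74 to 40.3 normalized counts against 236 to 628 in embryos. The ratio was 23 (21.3 to 24.9) at 5–6 and 22.6 (20.7 to 24.7) at 7–9 somite pairs. Snai1, Twist1 and Msx1 were shared between the tissues. Snai1, a repressor of E-cadherin, was higher in the embryo in 33 of 34 and 30 of 32 concepti, with log2 differences of 1.51 (SE 0.17, edgeR adjusted p = 3.38e-13) and 1.76 (SE 0.15, adjusted p = 1.36e-17). Twist1, a basic helix-loop-helix factor of mesenchyme, differed by 1.39 (SE 0.15, adjusted p = 1.40e-13) and 1.68 (SE 0.16, adjusted p = 7.88e-16). Msx1 differed least of the 7, by 0.75 at both stages (SE 0.14 and 0.09, adjusted p = 2.46e-06 and 4.56e-12).

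Snai2 ran the other way. This gene, the Slug repressor of the crest, held 17.6 to 57.2 normalized counts in embryos at 5–6 somite pairs (medians 29.8 normal and 35.3 diabetic) and 40.5 to 145 in yolk sacs (medians 75.4 and 84.9). It was higher in the yolk sac in 34 of 34 concepti at 5–6 and in 31 of 32 at 7–9 somite pairs, with log2 differences, embryo minus yolk sac, of -1.31 (SE 0.10, edgeR adjusted p = 7.48e-21) and -0.95 (SE 0.11, adjusted p = 6.73e-13). Ets1 was lower in the embryo at 5–6 somite pairs (-0.47, SE 0.11, adjusted p = 4.82e-05) and did not pass at 7–9 (0.05, 95% interval -0.13 to 0.24). Msx2 passed at neither stage, with 0.07 (-0.51 to 0.64) and 0.38 (-0.10 to 0.85), and both tissues spanned a wide range.

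**Figure D2:**
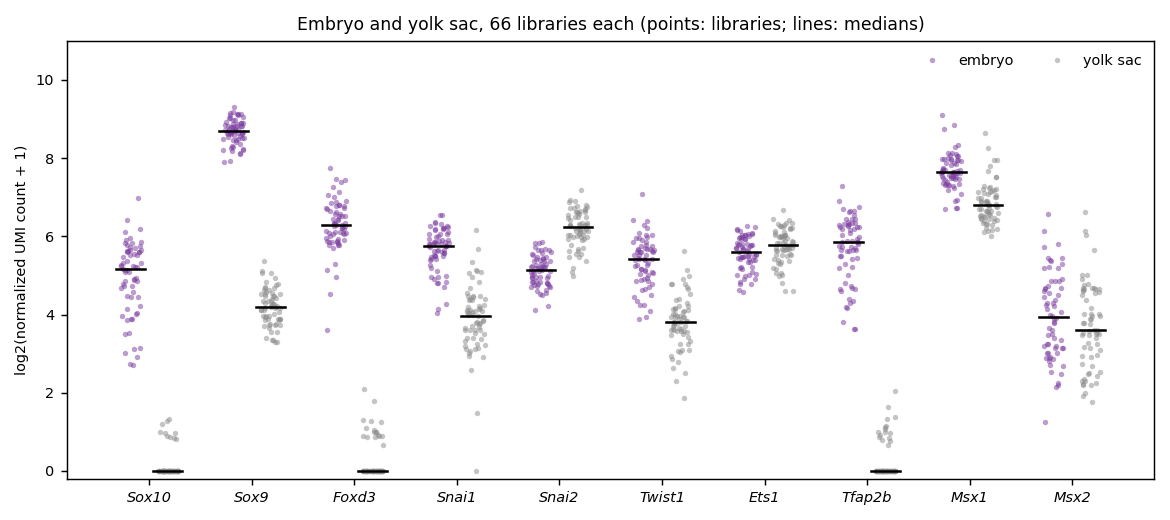
Levels of the 10 genes on the scale log2(normalized UMI count + 1) (y axis) in 66 embryo and 66 yolk sac libraries. Points are libraries and lines are medians. Sox10, Foxd3 and Tfap2b lie near 0 in the yolk sac, Snai2 lies above the embryo there, and Ets1 and Msx2 lie at like levels in both tissues.

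Between 5–6 and 7–9 somite pairs Sox10 and Tfap2b went up and Foxd3 went down. In normal embryos 2 of 10 genes passed the test between stages, 1 higher and 1 lower, beside 15.1% of 10696 genes (6.13% higher and 8.97% lower). In diabetic embryos 4 passed, 2 higher and 2 lower, beside 29.2% of 10711 (15.1% higher and 14% lower). The 2 stage comparisons used different embryos. Some dams gave embryos to both stages, and the main fits did not pair them. Where counts of each litter were added up, this was done per litter and stage, again without pairing. The random litter effect in limma allows for the shared dam.

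Sox10, the factor of migrating crest and later of its glia, ranged in normal embryos from 5.6 to 56.9 normalized counts at 5–6 somite pairs (median 20.8) and from 25.3 to 72.0 at 7–9 (median 34.3). The groups overlapped, and all 16 later embryos were above the earlier median. The log2 difference of 0.58 (SE 0.23) did not pass (edgeR adjusted p = 0.0802), and it passed with sex as a covariate (0.64, adjusted p = 0.0457), in limma with a random litter effect (0.69, adjusted p = 0.0292) and without litter N28M06 (0.97, adjusted p = 0.0234). After adding up the counts of each litter it did not pass (0.67, adjusted p = 0.250). In diabetic embryos the range went from 5.67 to 55.9 (median 21.2) to 36.3 to 124 (median 52.3). Sox10 rose there 2.33-fold (95% interval 1.66 to 3.27, edgeR adjusted p = 3.31e-04), again with all 16 later embryos above the earlier median.

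Tfap2b rose in both conditions. In normal embryos it went from 18.5 to 80.2 (median 36.2) at 5–6 to 38.0 to 118 (median 72.1) at 7–9 somite pairs, 1.77-fold higher (1.37 to 2.29, edgeR adjusted p = 0.00299). In diabetic embryos it went from 11.3 to 76.9 (median 44.4) to 50.6 to 155 (median 77.7), 2.08-fold higher (1.52 to 2.86, adjusted p = 7.05e-04). After adding up the counts of each litter the normal difference was 0.90 on the log2 scale (adjusted p = 0.0524). The stages overlapped in both conditions, and every later embryo lay above the earlier median of its condition.

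Foxd3 fell in both conditions. In normal embryos it ranged from 54.0 to 177 (median 94.3) at 5–6 and from 34.1 to 93.5 (median 67.3) at 7–9 somite pairs, a log2 difference of -0.49 (SE 0.13, edgeR adjusted p = 0.00952). No later embryo exceeded the earlier median. That call was lost without litter N28M06 (-0.38, adjusted p = 0.148) and after adding up the counts of each litter (-0.51, adjusted p = 0.135). In diabetic embryos it ranged from 66.1 to 212 (median 114) and from 11.1 to 110 (median 58.0), a log2 difference of -0.95 (SE 0.19, adjusted p = 4.72e-04), and again no later embryo exceeded the earlier median.

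Msx1 passed between stages in diabetic embryos, with 151 to 546 (median 207) at 5–6 and 121 to 272 (median 193) at 7–9 somite pairs. The log2 difference was -0.41 (SE 0.15, edgeR adjusted p = 0.0366), the ranges overlapped, and 5 of 16 later embryos were above the earlier median. This call was lost without any 1 of 6 litters (D23M11, D24M15, D28M23, D28M31, D28M36 or D28M37), with adjusted p of 0.0523 to 0.139. It was also lost in limma with a random litter effect (adjusted p = 0.0507), with no filter on low counts (0.0530) and after adding up the counts of each litter (0.198). In normal embryos Msx1 differed by 0.16 (95% interval -0.09 to 0.42). The other members did not pass in either condition: Sox9 -0.19 and -0.11, Snai1 0.02 and -0.32, Snai2 0.17 and -0.11, Ets1 0.22 and 0.12, Twist1 0.43 and -0.43, and Msx2 0.47 and -0.57 on the log2 scale in normal and diabetic embryos, none with an adjusted p under 0.1. With the share of counts in genes with no symbol as a covariate, Msx2 passed in diabetic embryos (-1.32, edgeR adjusted p = 0.00232).

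The stages span several somite numbers, and a slope per somite pair over all 66 embryos, with maternal condition as a covariate, gave 3 of 10 genes, 2 up and 1 down, beside 25.2% of 11418 genes (12.7% up and 12.5% down). Tfap2b rose by 0.37 per somite pair on the log2 scale (SE 0.05, edgeR adjusted p = 3.84e-08). Sox10 rose by 0.36 (SE 0.06, adjusted p = 4.98e-06). Foxd3 fell by 0.26 (SE 0.04, adjusted p = 3.50e-06). The same 3 genes passed in normal embryos alone, beside 389 of all 11154 genes. They passed in diabetic embryos alone together with Msx1 (-0.17, edgeR adjusted p = 0.00915), beside 2905 of all 11226 genes. With the share of counts in genes with no symbol as a covariate, Ets1 passed as well (0.10, edgeR adjusted p = 0.0204), beside 2764 of all 12396 genes.

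The means at each somite number show where the change lay. Sox10 had a mean of 20.1 ± 12.9 at 5 somite pairs (SD, n = 24), 35.2 ± 16.9 at 6 (n = 10), 38.7 ± 13.1 at 7 (n = 11), 52.8 ± 23.8 at 8 (n = 13) and 50.2 ± 19.3 at 9 (n = 8). Tfap2b went from 33.3 ± 16.8 over 56.6 ± 21.3, 65.4 ± 18.3 and 78.4 ± 27.7 to 91.1 ± 19.1. Foxd3 went from 115 ± 39.1 over 82.7 ± 17.2, 64.9 ± 25.9 and 65.5 ± 22.3 to 56.5 ± 11.6. The conditions differed in where Foxd3 went down: its means at 5, 6 and 7 somite pairs were 96.9, 88.6 and 67.8 in normal embryos and 130.2, 73.9 and 59.7 in diabetic embryos, a difference that was not tested. Sox9, the member with the least relative spread, had means of 445 ± 79.6, 428 ± 108, 397 ± 96.1, 404 ± 94.5 and 373 ± 42.9 over the same numbers, and its slope of -0.05 did not pass (SE 0.03, edgeR adjusted p = 0.108).

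**Figure D3:**
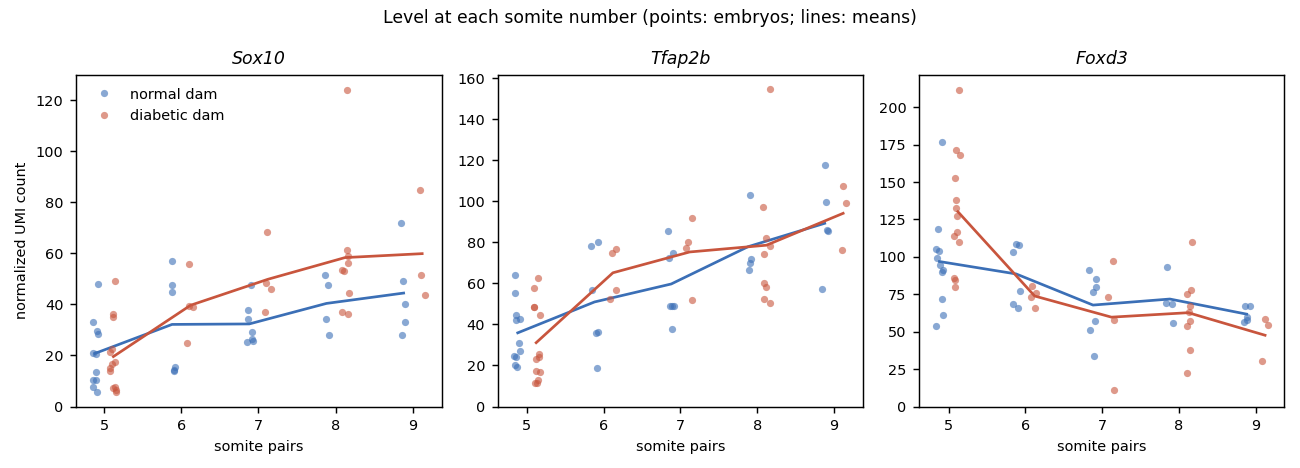
Normalized UMI counts (y axis, from 0) of Sox10, Tfap2b and Foxd3 against the number of somite pairs, with points for embryos of normal and diabetic dams and lines through the means at each number. Sox10 and Tfap2b climb from 5 to 9 somite pairs and Foxd3 falls, with the highest Foxd3 values in diabetic embryos at 5 somite pairs.

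The comparison of diabetic with normal pregnancies asks whether maternal diabetes alters crest gene expression. At 5–6 somite pairs 0 of 10 genes passed, beside 1.46% of 11004 genes called by edgeR (0.591% higher and 0.872% lower). Among the 10, 3 had an unadjusted p under 0.05, as had 2313 of the 11004 genes, and DESeq2 called 2, Twist1 and Msx1, among 397 genes in all. The median log2 difference of the 10 genes was 0.17, and that of all genes tested was 0.00.

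Twist1 ranged from 13.7 to 66.8 normalized counts (median 29.4) in normal embryos and from 34.0 to 136 (median 49.3) in diabetic embryos at 5–6 somite pairs. All 17 diabetic embryos lay above the normal median, and the ranges overlapped. The diabetic level was 1.51-fold the normal one (95% interval 1.18 to 1.94, edgeR adjusted p = 0.0648). It passed in DESeq2 (adjusted p = 0.0346), with the title number as a covariate (0.0181) and without any 1 of 3 normal litters (N23M31, N24M21 or N24M29, with 0.0345, 0.0250 and 0.0363).

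Msx1 ranged from 102 to 265 (median 195) in normal and from 151 to 546 (median 207) in diabetic embryos. The medians were close, 11 of 17 diabetic embryos lay above the normal median, and the diabetic group reached higher values. The diabetic level was 1.47-fold the normal one (1.18 to 1.84, edgeR adjusted p = 0.0600), and the adjusted p was 0.0289 in DESeq2. Msx1 also passed in edgeR with the title number as a covariate (adjusted p = 0.0390) and without litter N23M31 (0.0288) or N24M21 (0.0413). Like Twist1, Msx1 did not pass in limma with a random litter effect, after adding up the counts of each litter, or with somite number and sex as covariates. Foxd3 was 1.25-fold (1.01 to 1.54, adjusted p = 0.223) and Msx2 1.41-fold (0.856 to 2.34, adjusted p = 0.432). Sox10, Sox9, Ets1 and Tfap2b had log2 differences between -0.07 and 0.02, with intervals that for Sox10 still allow 0.640- to 1.46-fold and for Sox9 0.865- to 1.14-fold.

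Other measures were compared between the conditions at this stage, where 2313 of all 11004 genes had an unadjusted p under 0.05. The 4 markers chosen for allantois and amnion (Tbx4, Hand1, Postn and Bmp5) had a median log2 difference of 0.41 with 0 called in edgeR and 1 with an unadjusted p under 0.05, and their summed level went from 61.5 to 233 in normal and from 99.3 to 266 in diabetic embryos. Tbx4, the allantois gene among them, was at 0 in at least 1 embryo of each of these groups, and Hand1 and Bmp5 are also used in the embryo's own mesoderm. Across embryos, with the group means removed, their mean level had r = 0.36 with Msx1 and r = 0.27 with Twist1 (n = 66). Neural tube markers had a median log2 difference of -0.24 with 0 of 4 called and 2 with an unadjusted p under 0.05, and within groups they had r = -0.07 with Twist1 and r = -0.16 with Msx1. With the share of counts in genes with no symbol as a covariate, the log2 difference of Twist1 was 0.38 in place of 0.60 and that of Msx1 0.61 in place of 0.56, 0 of 10 genes were called, as without it, and 5 of all genes in place of 161. Within groups that share had r = 0.21 with Twist1 and r = -0.10 with Msx1. The part of these measures in the differences was not tested.

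At 7–9 somite pairs 1 of 10 genes passed, Sox10, beside 9.09% of 10628 genes (5.2% higher and 3.89% lower). Sox10 ranged from 25.3 to 72.0 (median 34.3) in normal and from 36.3 to 124 (median 52.3) in diabetic embryos. All 16 diabetic embryos lay above the normal median, and the ranges overlapped. The level was 1.48-fold the normal one (95% interval 1.18 to 1.86, edgeR adjusted p = 0.0263). At each somite number the diabetic mean was the higher, in small groups. It was 49.8 (n = 4) against 32.3 (n = 7) at 7 somite pairs. At 8 it was 58.3 (n = 9) against 40.4 (n = 4), and at 9 it was 59.9 (n = 3) against 44.4 (n = 5). Most of the diabetic embryos at 8 somite pairs came from 1 litter, D24M15, and the differences at single numbers were not tested.

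The Sox10 call rested in part on a single litter. Without D24M15, which gave 7 of the 16 diabetic embryos, the log2 difference was 0.38 in place of 0.57 and the adjusted p 0.124, and without the normal litter N28M03 they were 0.53 and 0.0504. In limma with a random litter effect the difference was 0.52 (adjusted p = 0.0933), and after adding up the counts of each litter 0.50 (edgeR adjusted p = 0.155). Tfap2b, which ran closest to Sox10 across embryos, was 1.10-fold (0.892 to 1.36) and did not pass. Visceral endoderm markers had a median log2 difference of 0.52 at this stage, and 0 of 8 tested passed in edgeR or had an unadjusted p under 0.05. Neural tube markers had a median of -0.28, and 0 of 4 passed while 3 had an unadjusted p under 0.05, beside 2916 of all 10628 genes. Within groups their mean levels had r = -0.19 and r = 0.48 with Sox10, and their part in the difference was not tested.

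The other 9 genes did not pass at 7–9 somite pairs. Sox9 was 1.04-fold (0.892 to 1.20) and Msx1 0.969-fold (0.826 to 1.14). Ets1 was 0.929-fold (0.789 to 1.10), Snai2 0.938-fold (0.766 to 1.15) and Foxd3 0.898-fold (0.697 to 1.16). Twist1 was 0.828-fold (0.617 to 1.11) and Snai1 0.858-fold (0.657 to 1.12), and Msx2 had the widest interval, 0.680-fold (0.416 to 1.11).

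**Figure D4:**
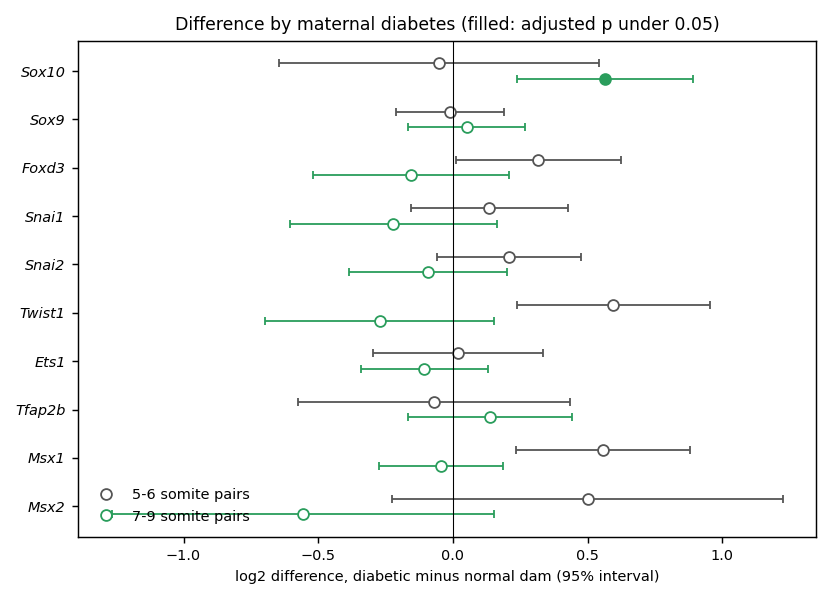
Log2 difference between embryos of diabetic and normal dams (x axis) for each gene at 5–6 and 7–9 somite pairs, with 95% intervals from edgeR. Filled points have an adjusted p under 0.05. Sox10 at 7–9 somite pairs is the filled point at 0.57, and Twist1, Msx1 and Msx2 lie right of 0 at 5–6 and left of 0 at 7–9 somite pairs.

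Whether the diabetic difference itself changed with stage was tested as an interaction over all 66 embryos. Of the 10 genes 1 passed, Twist1, beside 8.7% of 11304 genes (4.35% higher and 4.35% lower). The Twist1 difference was 0.60 at 5–6 and -0.27 at 7–9 somite pairs on the log2 scale, and the interaction was -0.86 (SE 0.28, edgeR adjusted p = 0.0434). In normal embryos the Twist1 median went from 29.4 to 47.7 and in diabetic embryos from 49.3 to 39.4. The call was lost without any 1 of 10 of the 22 litters (D24M15, D28M23, D28M36, D28M53, N28M03, N28M06, N28M07, N28M22, N28M25 or N28M30), with adjusted p of 0.0560 to 0.135, and with the share of counts in genes with no symbol as a covariate (-0.67, adjusted p = 0.151).

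Msx1 gave an interaction of -0.59 (SE 0.20, adjusted p = 0.0566) and Msx2 of -1.05 (SE 0.52, adjusted p = 0.177). The allantois and amnion markers had a median interaction of -0.53, beside 0.01 for all genes. In edgeR 0 of these 4 were called and 1 had an unadjusted p under 0.05, beside 3171 of all 11304 genes. For Sox10 the interaction was 0.63 (SE 0.35, adjusted p = 0.217), so a stage dependence of its diabetic difference was not shown. Foxd3 gave -0.46 (SE 0.24, adjusted p = 0.195) and Tfap2b 0.22 (SE 0.30, adjusted p = 0.645).

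Some of the genes ran together across single embryos. Correlations here are Pearson's r of log2(normalized count + 1) over the 66 embryos with the group means removed, given as a description, since the values share library and litter. Somite number still varied within each group, so change within a stage, as seen for Sox10 and Tfap2b, remains in r. Its part was not tested. Sox10 and Tfap2b had the highest, 0.79, and of 45 pairs 7 were above 0.5. The other 6 were Sox9 with Foxd3 (0.52), Snai1 with Twist1 (0.52), Msx1 (0.54) and Msx2 (0.58), Msx2 with Twist1 (0.60) and Msx1 with Msx2 (0.58). Twist1 and Msx1 had 0.47. Sox10 ran against Msx1 (-0.40), and it had no relation to Foxd3 (-0.00). In single groups r of Sox10 with Tfap2b was 0.54 to 0.88 and of Msx1 with Msx2 0.51 to 0.68. Other pairs varied more: Snai1 with Twist1 had 0.09 in diabetic 5–6 and 0.73 in normal 7–9 embryos. Msx2 with Twist1 had 0.21 and 0.82 in these groups. No background over all gene pairs is given here.

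**Figure D5:**
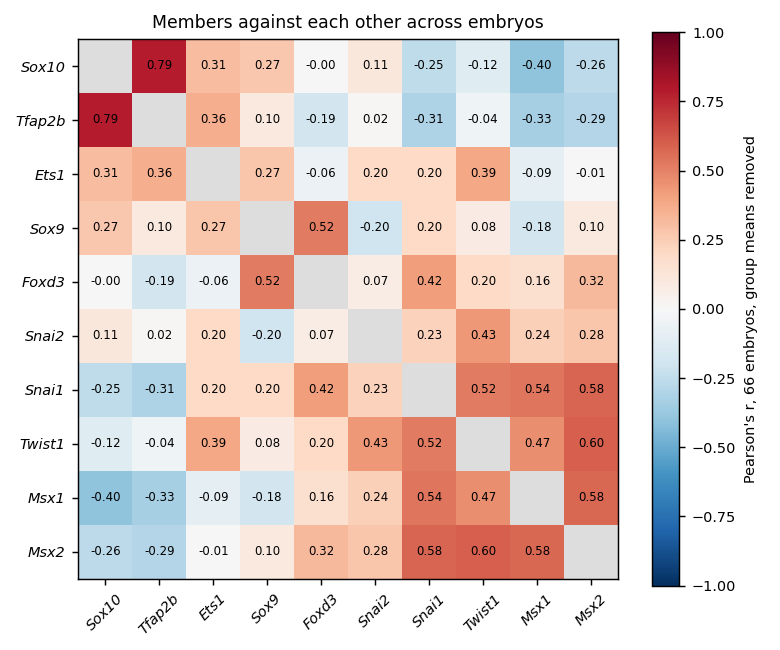
Pearson's r between the 10 genes over 66 embryos after removal of the group means, on a scale from -1 (blue) to 1 (red), with the value in each cell. Sox10 with Tfap2b has 0.79, the pairs among Snai1, Twist1, Msx1 and Msx2 have 0.47 to 0.60, and the diagonal is left grey.

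Msx2, Twist1, Msx1 and Snai1 lay along the main axis of spread between embryos. The leading principal component of 10863 genes within groups held 21.8% of their variance and had no relation to depth (r = -0.02 with log2 total counts). Msx2 had r = 0.83 with it, Twist1 0.56, Msx1 0.55, Snai1 0.52 and Foxd3 0.45. Sox9 (-0.02), Ets1 (-0.26), Sox10 and Tfap2b (both -0.29) did not run along it in that direction. None of the 10 genes had more than r = 0.32 with log2 total counts, the value for Sox10.

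The genes most like each member were taken over all 66 embryos without removal of the group means. For Tfap2b they were Nr2f1 (r = 0.88), an orphan nuclear receptor, Sox10 (0.86) and Zic1 (0.85), a zinc-finger factor of the dorsal neural tube. For Sox10 they were Tfap2b (0.86), Nr2f1 (0.83) and Mylk (0.83), a myosin light chain kinase. For Msx2 they were Ctnnd1 (0.91), Slc20a2 (0.91) and Pmpcb (0.90), which encode a catenin, a phosphate transporter and a mitochondrial peptidase. These Msx2 values are the highest of any member, for the gene with the lowest counts.

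For the remaining members the likeness was weaker. Sox9 was nearest to Irx1, Sox1 and Soga3 (all 0.60), where Irx1 and Sox1 are neural genes, and the neural tube markers together had r = 0.66 with Sox9 within groups. Foxd3 was nearest to Nsmce3 (0.75), Haus2 (0.75) and Pcgf6 (0.73), and Snai1 to Zc3h7b (0.81), Ece1 (0.78) and Sav1 (0.77). Twist1 was nearest to Tjp1 (0.83), Rbpms (0.82) and Trp53 (0.79), and Msx1 to Axin2 (0.70), a WNT target, Bpnt1 (0.69) and Stt3b (0.69). Ets1 was nearest to Igfbp5 (0.72), Zfp318 (0.71) and Asap1 (0.71) and had r = 0.41 with the endothelial markers within groups. Snai2 had the least likeness, to Emc7 (0.59), Id2 (0.57) and a gene whose symbol reads as a date in the table (0.56).

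Other genes of the crest pathway were followed in lists by role. Of 10 border genes, 1 was higher at 7–9 than at 5–6 somite pairs in both conditions, Zic1, by 1.20 on the log2 scale in normal embryos (SE 0.26, edgeR adjusted p = 0.00258) and by 1.64 in diabetic embryos (SE 0.29, adjusted p = 7.36e-05). Of the same list 1 gene was lower in normal and 2 in diabetic embryos. Over all genes 6.13% were higher and 8.97% lower in normal embryos, and 15.1% and 14% in diabetic embryos. The list medians were 0.06 and -0.13, so the list as a whole did not move with Zic1. Zic1 also rose over somite number, with a slope of 0.53 per somite pair (adjusted p = 2.88e-09).

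Among the signals, 8 of 10 genes were tested, and 0 passed in edgeR between stages in normal embryos. There 3 had an unadjusted p under 0.05, beside 3240 of all 10696 genes. In diabetic embryos Bmp4, an inducer of the border, was higher (0.61, SE 0.13, edgeR adjusted p = 8.27e-04) and Wnt3a, a roof plate and tail bud signal, lower (-0.65, SE 0.16, adjusted p = 0.00317). Of 12 genes of crest derivatives 10 were tested. In normal embryos 2 were higher at the later stage, and in diabetic embryos 3, led by Crabp1, a retinoic acid binding protein of crest and hindbrain (0.77, SE 0.14, adjusted p = 1.16e-04). None was lower in either. Over all genes 6.13% were higher in normal and 15.1% in diabetic embryos at the later stage, and the counts of the crest lists, of a few genes each, are to be read against these shares.

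Of the 16 genes of migration and epithelial-to-mesenchymal transition, 2 of 15 tested were higher in normal embryos at the later stage and 3 of 16 in diabetic embryos, with 0 and 1 lower. Over all genes 6.13% and 15.1% were higher and 8.97% and 14% lower. Ednrb, the endothelin receptor of migrating crest, led in both, with 0.81 (SE 0.20, edgeR adjusted p = 0.00538) and 0.64 (SE 0.19, adjusted p = 0.00912), and Epha4, a guidance receptor, was the lower gene (-0.27, SE 0.08, adjusted p = 0.0133). Of the 7 paralogs only Twist2, Ets2 and Msx3 had enough counts to be tested. Msx3, a dorsal neural tube gene, was higher at the later stage in both conditions (0.67, SE 0.20, adjusted p = 0.0230 and 0.87, SE 0.24, adjusted p = 0.00654). The paralogs Sox8, Snai3, Tfap2d and Tfap2e had means of 1.59, 0.214, 0.160 and 0.128 normalized counts per embryo.

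In the comparison of diabetic with normal embryos these lists held few calls. At 5–6 somite pairs 0 genes of these lists passed in edgeR, and 3 of 10 border genes, 1 of 8 signals and 2 of 16 migration genes had an unadjusted p under 0.05, beside 2313 of all 11004 genes. At 7–9 somite pairs Nrp2, a neuropilin of migrating crest, was lower (-0.32, SE 0.10, edgeR adjusted p = 0.0422), and Crabp1 was higher (0.43, SE 0.11, adjusted p = 0.0135). Crabp1 was also the single listed gene with a called interaction (0.59, SE 0.18, adjusted p = 0.0352). Between tissues, 9 of 10 border genes were higher in the embryo at both stages, beside 40.7% and 42% of all genes. Pax7 led (log2 differences 6.55 and 7.01). Ednrb was lower in the embryo (-1.84 and -1.78), like Snai2.

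Duplicate libraries of 2 concepti, left out of all tests, show the technical spread. For the embryo library of N28M06C, Sox10 had 128 counts and 151 in its duplicate, where depth predicts 130, Foxd3 had 308 and 318 (predicted 313), and Msx2 had 37 and 30 (predicted 37.6). For the embryo of D24M15G, Twist1 had 40 and 55 counts (predicted 41.4) and Msx2 22 and 17 (predicted 22.8). In the yolk sacs Snai2 had 67 and 62 counts (predicted 71.2) for D24M15G and 57 and 60 (predicted 68.9) for N28M06C.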

How the data were processed

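RNA of 66 embryos and 66 yolk sacs was sequenced by QuantSeq 3′ FWD with unique molecular identifiers (UMIs), which tags each molecule near its 3′ end. The authors aligned reads with STAR to mm10, counted them with HTSeq (submitters' processing notes, no versions) and collapsed UMIs, and deposited raw UMI counts per gene. The annotation used and the strand setting are not given in the sources used here. The 4 duplicate libraries were left out of tests.

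Members and lists were chosen with earlier results of these data known. Genes were filtered with filterByExpr (minimum count 10), scaled by TMM and tested with edgeR 4.0.16 quasi-likelihood fits, with Benjamini-Hochberg adjustment over all genes and a threshold of 0.05. Levels are counts over DESeq2 size factors from all 132 libraries, and correlations use a pseudocount of 1. Alternatives used DESeq2 1.42.0 and limma 3.58.1 in R 4.3.3, and Python 3.11.15 served for levels. Named genes are the members, per list and comparison the called gene with the largest change in each direction, and the 3 genes most correlated with each member. Some genes of the lists are not reported here. Totals were 1017901 to 5658850 counts per library, and intervals on ratios cover counting error only.

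Embryos were treated as replicates in these fits although littermates share a dam (littermate correlation 0.128 to 0.251), so p-values may be too small. Embryo and yolk sac pair by conceptus title: over 9544 genes their deviations from group means had a median r of 0.0977, above 0.1 in 32 of 66 concepti. On simulated counts with 200 changed genes, the fits between conditions recovered 72.7% (5–6) and 76.5% (7–9) of the genes changed 1.5-fold, and 95.8% and 96.8% of those changed 2-fold. Each library was drawn on its own with no litter effect, and the changed genes were drawn at random. These shares therefore do not give the power for single members, and with littermates alike they may be too high.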

Additional observations from a re-analysis of the deposited data

Results flagged for a closer look

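The difference in Twist1 between diabetic and normal embryos passed the edgeR test for a change with stage. It was 0.60 at 5–6 and -0.27 at 7–9 somite pairs on the log2 scale, and the interaction term over 66 embryos was -0.86 (SE 0.28, edgeR adjusted p = 0.0434). In edgeR Twist1 was the single member past the threshold in this test, 1 of 10, beside 984 of all 11304 genes (8.7%). DESeq2 and limma with a random litter effect called 2 (Twist1 and Msx1), beside 1157 and 1292 of all genes. With no filter 0 members were called, beside 438 of 29711 genes. With the share of counts in genes with no symbol as a covariate 0 were called, beside 235 of 12221 genes. The interaction kept its sign without each of the 22 litters in turn and was no longer past the threshold without any 1 of 10 of them.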

How the results depend on the processing

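The number of the 10 genes called moved by over 1.5 times in several settings. Diabetic against normal at 5–6 somite pairs gave 2 (Twist1 and Msx1) with DESeq2 and with the title number as a covariate, where edgeR gave 0. At 7–9 it gave 0 in limma with a random litter effect (the block) and after adding up the counts of each litter (litter sums). For the stage comparisons the litter sums were formed per litter and stage and were not paired by dam. Between stages in normal embryos the block gave 4 (Sox10, Foxd3, Twist1 and Tfap2b), litter sums gave 0 and, within 1.5 times, sex as a covariate gave 3. In diabetic embryos smaller shifts from 4 gave 3 with no filter, the block and litter sums (each without Msx1) and 5 with the share of counts in genes with no symbol (with Msx2). The interaction gave 2 (Twist1 and Msx1) with DESeq2 and the block, and 0 with no filter and with the share. That covariate, and the interaction and slope without each litter, were chosen after seeing the data. Leaving out each litter in turn gave 0 to 2 called for diabetes at 5–6 somite pairs, 0 to 1 at 7–9, 2 to 3 between stages in normal and 3 to 4 in diabetic embryos, 0 to 2 for the interaction and 3 to 4 for the slope. With the conceptus as a replicate block, 9 and 8 genes were called between tissues, as without it, and it changed no other call.

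Signs changed for these values on the log2 scale, none of them called over all embryos of its comparison, though the Msx1 slope was called in diabetic embryos alone. For diabetes at 5–6 somite pairs, Ets1 was -0.0058 with no filter, -0.0089 with somite number and sex, -0.031 in litter sums and -0.25 with the share. Sox9 was 0.038 with the block, 0.033 in litter sums and 0.0048 with the share, Sox10 was 0.046, 0.038 and 0.032 with somite number and sex, litter sums and the share, and Tfap2b was 0.0086 with somite number and sex. Between stages in normal embryos Snai1 was -0.0018 with no filter, and the interaction of Ets1 was 0.12 with the share. Per somite pair, Twist1 was 0.017 with the block, 0.12 in normal embryos, 0.048 without D24M15 and 0.030 with the share. In normal embryos Snai1 was 0.0044, Msx1 0.030 and Msx2 0.098, Msx2 was 0.0046 without D24M15, and Snai2 was -0.034 in diabetic embryos. Over litters left out, diabetes at 5–6 ranged from -0.13 to 0.12 for Ets1, -0.23 to 0.28 for Sox10, -0.075 to 0.062 for Sox9 and -0.34 to 0.11 for Tfap2b. At 7–9 it ranged from -0.13 to 0.0056 for Msx1 and -0.024 to 0.11 for Sox9. The interaction ranged from -0.20 to 0.041 for Ets1 and -0.042 to 0.14 for Sox9, Snai1 between stages in normal embryos from -0.043 to 0.090, and the slope from -0.00019 to 0.035 for Snai2 and -0.044 to 0.030 for Twist1. The cause of these changes was not tested.

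Over all genes, calls for diabetes at 5–6 somite pairs numbered 161 in edgeR, 397 in DESeq2, 291 with no filter, 448 with the title number, 4 with the block, 0 in litter sums and 5 with the share. At 7–9 they numbered 966, and 1899, 314 and 8 with the title number, the block and litter sums. Litter sums gave 122 in place of 1615 between stages in normal and 1101 in place of 3124 in diabetic embryos. The interaction had 984, and 438 with no filter and 235 with the share, and the slope 2877, with 389 in normal embryos alone and 1922 without D24M15. Between tissues no filter gave 14180 and 14915 in place of 9091 and 9235. Sox10 in yolk sacs rests on 2 and 8 counts, which limits its ratio.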

Other observations

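Marker lists of other tissues ran with single members across the 66 embryos after removal of the group means, given as a description with no test. Notochord markers ran against Sox10 (r = -0.54, in single groups -0.80 to -0.11) and Tfap2b (r = -0.57, in single groups -0.76 to -0.34). Endothelial markers ran against Foxd3 (r = -0.44), but not in every group. Here r was -0.53 in normal 5–6, -0.73 in diabetic 5–6 and -0.50 in diabetic 7–9 embryos, and 0.40 in normal 7–9 embryos. Neural tube markers ran with Foxd3 (r = 0.49, in single groups 0.36 to 0.67). Allantois and amnion markers ran against Sox9 (r = -0.53, in single groups -0.89 to -0.30). With Snai2 they had r = 0.34, which in single groups went from -0.09 in diabetic 7–9 to 0.81 in normal 7–9 embryos. Bmp5, the bone morphogenetic protein gene of the allantois and amnion list, had r = 0.66 with Msx2, 0.47 with Twist1 and 0.45 with Msx1. The rest of that list, Tbx4, Hand1 and Postn, had r = -0.07, -0.01 and -0.03 with Msx2. With Twist1 they had 0.12, 0.09 and 0.15, and with Msx1 0.25, 0.30 and 0.05. The whole list had r = 0.09 with Msx2. With Sox9, Bmp5 had r = 0.004, where Tbx4, Hand1 and Postn had -0.38, -0.46 and -0.41.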
